A study of Canis lupus familiaris with 34 samples.

Results

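A set of 8 genes of cholesterol synthesis and its control was followed across canine osteosarcoma cell lines and tumours: INSIG1, HMGCS1, IDI1, FDFT1, SQLE, LSS, SC5D and DHCR7. They were chosen by symbol, as a pathway, with earlier results of these data known. Of the 8, 7 had at least 1 probe set named in the annotation used, and IDI1, the isopentenyl diphosphate isomerase, was not analysed here. The 7 genes had 14 probe sets, all 14 passed the filter on dim values, and the 7 genes stood among 7849 genes tested.

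Osteosarcoma is a malignant tumour of bone, and RNA of 31 dogs with it was hybridised to 34 Canine_2 expression arrays from Affymetrix. There were 3 arrays of metastasis-derived lines, 25 of lines from primary tumours and 6 of primary tumour tissue that was snap-frozen. Dog 22 gave a pair of primary line arrays, which were averaged, leaving 24 primary lines. Dogs 22 and 23 each gave both a line and a tissue.

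The metastatic lines came from Rottweilers and a Rhodesian Ridgeback, 2 male and 1 female, with ages at diagnosis of 2.39 to 6.31. The primary lines came from Rottweilers (10), Golden Retrievers (7), German Shepherds (spelled German Shephard in 1 label), a Great Pyrenees, a Mastiff, an Alaskan Malamute, a Saint Bernard (primary line 4) and a dog of unknown breed, 13 male and 10 female, with ages of 2 to 11.19. The tissues came from Golden Retrievers, a Belgian tervuren, a Borzoi and a Great Pyrenees, 1 male and 5 female, with ages of 2.67 to 11.91. The labels give no unit of age. Treatment labels were SOC or PALL among metastatic lines, SOC, SOC* (for dogs that died before or during chemotherapy), AMP, PALL or ABX among primary lines, and SOC among tissues, with none for several dogs. The lines were grown from fresh or cryopreserved cultured tumour cells, and their medium and passage are not stated in the labels.

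Cholesterol is built from acetyl-CoA. The early steps run through mevalonate to farnesyl diphosphate, which also feeds isoprenoids for protein anchoring, and end with squalene. The late steps oxidise squalene, close it into lanosterol and trim lanosterol to cholesterol. SREBP2 switches these genes on when membrane sterol is low, and INSIG proteins, through SCAP, hold SREBP2 in the endoplasmic reticulum when sterol is plentiful. INSIG1 is itself a target of SREBP. Dividing cells use the pathway for new membrane, and the bisphosphonates given in bone disease block its farnesyl diphosphate synthase.

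All values are log2 of the deposited GCRMA intensity, a probe brightness corrected for background and normalized, so a difference of 1 is 2-fold. Levels of different probe sets are on different scales and are not set against each other. A gene was called between lines and tissues at an adjusted p under 0.05 in limma and at least 2-fold. A sample was counted as above the dim range at log2 5.

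Some sample features moved with the groups and bear on every line and tissue comparison below. Titles carried 1 of 3 prefixes: prefix 1 held 4 primary lines, prefix 2 held 19 primary and 3 metastatic line arrays, and prefix 3 held 2 primary line arrays and all 6 tissues. The macrophage marker list, 11 of 11 measured, summed to 54.9 to 68.4 in metastatic lines, 51.8 to 14400 in primary lines and 5460 to 25900 in tissues on the linear intensity scale. None of the 11 markers had a median over log2 5 in metastatic lines or primary lines, and all 11 did in tissues. Primary line 4 alone among the lines had a sum in the tissue range, at 14360, and its endothelial markers summed to 32620. Single macrophage markers did not all follow that sum. CSF1R, CD163, C1QA, C1QB, C1QC, TYROBP and AIF1 were over log2 5 in 0 of 24 primary lines. LYZ, LAPTM5 and CD14 were over it in 1 primary line each and CD68 in 3. The osteoblast list, 9 of 10 measured, summed to 30000 to 35400 in metastatic lines, 6080 to 42600 in primary lines and 47200 to 81600 in tissues. Of the 9, 2 had a median over log2 5 in metastatic lines, 3 in primary lines and 7 in tissues. COL1A1 and COL1A2 weigh most in the sums of the lines, with means of 13.66 and 14.31 in primary lines and 13.84 and 14.65 in tissues. Means in primary lines and tissues were 2.86 and 11.23 for IBSP, 3.40 and 10.09 for ALPL, 3.33 and 9.53 for PTH1R, and 5.08 and 12.46 for SPP1. Actin probe sets differed between the 3′ and 5′ ends by 1.42 ± 0.956 in primary lines and 2.59 ± 1.148 in tissues (SD, n = 24 and 6, exact permutation p = 0.0149, two-sided), and GAPDH probe sets by 3.09 ± 0.309 in primary lines and 3.2 ± 0.192 in tissues (exact permutation p = 0.404). Among the metastatic lines, line 1 stood apart in both, at 3.95 for actin and 5.92 for GAPDH. Metastatic lines 2 and 3 had 0.65 and 0.63 for actin and 3.12 and 3.21 for GAPDH. Primary lines reached at most 4.17 for GAPDH. The highest actin difference of all samples was 4.61, in tissue 3. The adipocyte list, 5 of 7 measured, summed to 20.4 to 410 in metastatic lines, 20.7 to 4000 in primary lines (median 49.9) and 291 to 3700 in tissues. Its highest sums among primary lines were in line 20 (4004), line 15 (1483), line 16 (748.3) and line 17 (227.1). None of its measured markers had a median over log2 5 in metastatic or primary lines, and 3 did in tissues. Of 24 primary lines, PPARG was over log2 5 in 0, LPL and CD36 in 1 each, FABP4 in 5 and LEP in 7. LEP was over it in 0 of 6 tissues, so a high sum rests on few markers of the list. The proliferation list, 7 of 10 measured, summed to 3240 to 11600 in metastatic lines and 1080 to 23700 in primary lines (median 6010). Tissues ran from 3820 to 26000 (median 11900), and each measured marker of that list had its highest group mean there. Array medians on the linear scale were 8.31 ± 0.123 in primary lines and 8.53 ± 0.149 in tissues (exact permutation p = 0.000832). The part of these features in the differences below was not tested. In bulk samples, fewer cells of a type and less RNA per cell cannot be told apart.

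In primary tumour lines against tumour tissue, 4 of the 7 measured genes were called, all higher in lines: INSIG1, FDFT1, SC5D and DHCR7. Over all genes tested, 5.57% were called higher in primary lines and 14.6% in either direction. SQLE, LSS and HMGCS1 were not called. The median difference of the 7 was 1.98, against -0.05 over all genes tested.

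INSIG1, which retains SREBP in the endoplasmic reticulum, ran lowest to highest from 6.13 to 12.61 in primary lines with a median of 10.64, and from 5.11 to 8.20 in tissues with a median of 6.42. The top tissue was overtaken by 18 of 24 primary lines, and the 6 lowest lines lay within the range of the tissues. INSIG1 was 3.55 higher in primary lines (SE 0.74, adjusted p = 0.000669), an 11.7-fold difference. Its means were 10.09 ± 1.82 in primary lines and 6.54 ± 1.07 in tissues (SD, n = 24 and 6). Its other probe set gave 2.62 (SE 0.81, adjusted p = 0.0178 over all kept probe sets).

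HMGCS1, the synthase that makes HMG-CoA, was bright in both groups. Its level was 9.60 to 13.03 in primary lines with a median of 11.55, and 10.03 to 12.02 in tissues with a median of 11.33. The primary lines reached past the tissues on both sides, with 8 of 24 lines above the highest tissue and 3 below the lowest. The difference was 0.21 (SE 0.43, 95% interval -0.66 to 1.08, adjusted p = 0.766), and without tissue 1 it was -0.03. Its other 2 probe sets gave 1.04 (adjusted p = 0.402) and 2.07 (adjusted p = 0.109), so the size depended on the probe set and none was called.

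FDFT1, squalene synthase, ends the early steps by joining farnesyl diphosphate molecules. It measured 7.63 to 11.19 in primary lines with a median of 9.62, and 6.31 to 9.41 in tissues with a median of 7.68. Tissue 6 stood above the other tissues, and 13 of 24 lines exceeded it. FDFT1 was 1.98 higher in primary lines (SE 0.49, adjusted p = 0.00355), a 3.95-fold difference, and its other probe set gave 1.44 (adjusted p = 0.00936). Among females alone it was 1.48 with an adjusted p of 0.0974.

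SQLE, squalene epoxidase, starts the late steps. Its level was 9.51 to 13.27 in primary lines with a median of 11.87, and 9.20 to 12.26 in tissues with a median of 10.98. Only 9 of 24 lines lay above tissue 3, the highest tissue. The difference was 0.96 (SE 0.43, adjusted p = 0.0997), and it reached 1.27 (adjusted p = 0.0428) without tissue 3. Its other 2 probe sets gave 0.90 and 1.11, neither called.

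LSS, which closes squalene epoxide into lanosterol, was dim. Only 6 of 24 primary lines and 0 of 6 tissues were over log2 5. Its level was 2.59 to 7.29 in primary lines with a median of 3.95, and 2.32 to 3.49 in tissues with a median of 2.60. The difference of 1.40 (SE 0.54, adjusted p = 0.0583) was not called. It was called at 1.47 (adjusted p = 0.0432) without primary line 4, a removal chosen after seeing the data. That was the only 1 of its 17 alternatives with a call. The tissue levels are close to background, so the size of the difference is uncertain.

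SC5D, the desaturase that acts on lathosterol, separated the groups completely. It measured 8.12 to 10.90 in primary lines with a median of 9.66, and 5.48 to 7.58 in tissues with a median of 6.99. All 24 lines lay above all 6 tissues, as 0.204% of all genes tested did. SC5D was 2.90 higher in primary lines (SE 0.36, adjusted p = 2.22e-07), a 7.44-fold difference, and its other probe set gave 3.34 (adjusted p = 2.81e-07). The other 6 measured genes overlapped between the groups.

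DHCR7, the reductase of the last step to cholesterol in one branch of the pathway, was over log2 5 in 21 of 24 primary lines and in 0 of 6 tissues. It measured 3.96 to 9.36 in primary lines with a median of 7.27, and 2.87 to 4.46 in tissues with a median of 4.30. Of the lines, 23 of 24 were above the highest tissue, and primary line 20 lay within the tissue range. DHCR7 was 2.89 higher in primary lines (SE 0.62, adjusted p = 0.000904), a 7.39-fold difference that is uncertain in size because the tissues were near background. Counted by probe set, 7 of the 14 were called higher in primary lines, where 7.4% of the kept probe sets were, and all 14 differences were above 0.

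**Figure D1:**
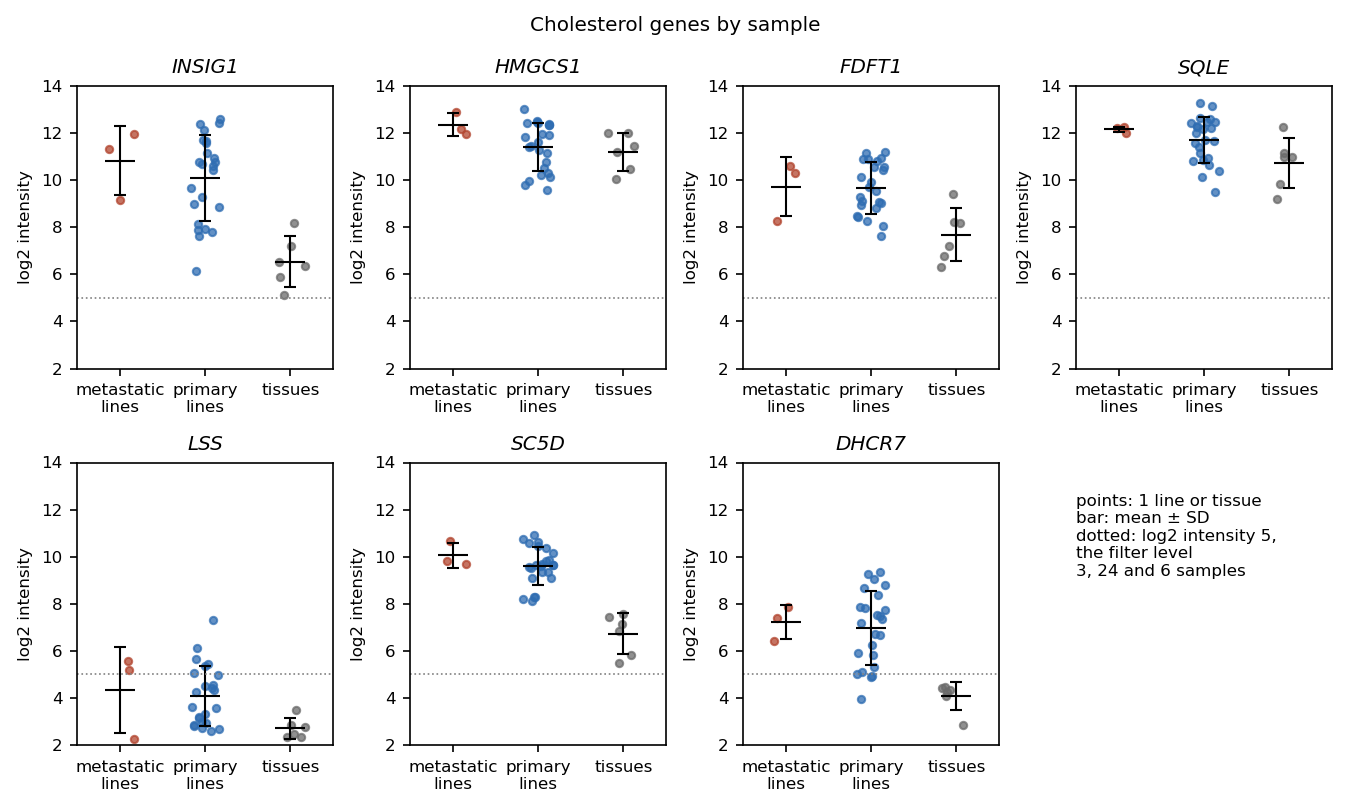
Log2 intensity of the 7 measured genes in each metastatic line (3), primary line (24) and tissue (6), with the mean and SD of each group and a dotted line at log2 5. SC5D shows no overlap between the 24 primary lines and the 6 tissues. For HMGCS1 the primary lines reach both above and below the tissues, and LSS lies mostly under the dotted line.

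Tissue 1 was the lowest tissue for all 7 genes. Without it, 4 genes were still called. More calls were lost in the fits that used the title prefix. The covariate fit and the fit within prefix 3 gave the same differences. Both compare the 2 primary line arrays of prefix 3 with the 6 tissues. FDFT1 differed by more there than the 1.98 over all primary lines, and INSIG1, SC5D and DHCR7 by less. The part of the prefix and of the smaller number of lines in the lost calls was not tested. With the prefix as a covariate, SC5D alone of the 4 was called, and FDFT1 had an adjusted p of 0.0514, DHCR7 of 0.209 and INSIG1 of 0.456. Within prefix 3, with 2 primary line arrays and 6 tissues, the differences were 1.63 for INSIG1 (adjusted p = 0.26), 2.78 for FDFT1 (0.0932), 2.43 for SC5D (0.081) and 2.34 for DHCR7 (0.0596), and none was called. Since prefix 3 alone held both lines and tissues, prefix and sample type cannot be told apart for the other lines.

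Dogs 22 and 23 allowed a line and a tissue of the same animal to be set side by side, though in part across title prefixes. The line value of dog 22 averages arrays of prefixes 2 and 3, the line of dog 23 is of prefix 2, and both tissues are of prefix 3. In dog 22 the line exceeded the tissue by 2.83 for SC5D, 1.97 for FDFT1, 1.72 for DHCR7, 1.63 for INSIG1 and 1.47 for SQLE, with LSS at 0.09 and HMGCS1 at -0.04. Within prefix 3, the line array and the tissue of dog 22 measured 8.69 and 6.83 for SC5D, and 10.09 and 8.18 for FDFT1. They measured 5.63 and 4.09 for DHCR7, 7.50 and 6.51 for INSIG1, and 12.22 and 10.99 for SQLE. LSS was at 3.82 and 3.49 there, and HMGCS1 at 10.92 and 11.47. In dog 23 only SC5D was higher in the line, by 1.93. The other 6 genes were lower there: line minus tissue was -0.05 for LSS, -0.29 for INSIG1 and for DHCR7, -1.16 for FDFT1, -1.41 for HMGCS1 and -1.47 for SQLE. The line of dog 23, primary line 20, was among the lowest of the primary lines for those 6 genes. For SC5D it stood at 9.51, where the primary line median was 9.66. The pair of line arrays of dog 22 themselves differed by 0.13 for FDFT1 up to 1.94 for SC5D, so single pairs are imprecise.

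The early and late steps of the pathway were compared as the mean difference of their measured genes, with no test. The late genes SQLE, LSS, SC5D and DHCR7 averaged 2.04 higher in primary lines than in tissues, and the early genes HMGCS1 and FDFT1 averaged 1.09 higher, a gap of 0.94. Measured in each sample from the tissue mean, which sets the tissues to 0 on average, the late minus early gap averaged 0.79 ± 0.19 in metastatic lines and 0.94 ± 0.41 in primary lines (SD, n = 3 and 24). Primary lines ran from 0.14 to 1.51, and tissues spread from -0.63 to 1.03 around 0. The early mean holds only 2 measured genes, and the gap moved with how they were counted. Counting FDFT1 as late made it 1.82, averaging all kept probe sets of a gene made it 0.69, and prefix 3 alone gave 0.52. With the probe set of the widest interquartile range standing for each gene, it was 0.16. That choice of probe set was planned for the group differences and was applied to this gap after seeing the data. LSS and DHCR7 were under log2 5 in all tissues, and with SQLE and SC5D alone as late genes, also chosen after seeing the data, it was 0.83. Over all measured enzymes of a wider list it was 0.63.

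The wider pathway list held 9 early enzymes, of which 7 were measured, and 12 late enzymes, of which 11 were measured. All 7 early and all 11 late differences were above 0, with medians of 0.75 for early and 1.22 for late enzymes against -0.05 over all genes tested. Called higher in primary lines were 2 of 7 early enzymes, ACAT2 and FDFT1, and 4 of 11 late enzymes, TM7SF2, MSMO1, SC5D and DHCR7, beside 5.57% of all genes. ACAT2, the thiolase that starts the pathway, was 9.63 ± 1.31 in primary lines and 8.07 ± 0.66 in tissues, a difference of 1.56 (adjusted p = 0.0292) that lost its call without tissue 1, 2, 3 or 5, among females alone (1.03, adjusted p = 0.288), with the prefix as a covariate (adjusted p = 0.198) and within prefix 3 (1.96, adjusted p = 0.11). MSMO1, the methylsterol oxidase, was 11.72 ± 0.59 in primary lines and 9.69 ± 1.09 in tissues, a difference of 2.03 (adjusted p = 7.83e-06) that was also called with the prefix as a covariate (adjusted p = 0.029), and was 1.97 but not called within prefix 3 (adjusted p = 0.182). TM7SF2, a sterol reductase, was 6.94 ± 1.52 in primary lines and 3.90 ± 1.46 in tissues, a difference of 3.04 (adjusted p = 0.000744), with 2 of 6 tissues over log2 5 and no call with the prefix as a covariate (adjusted p = 0.163), within prefix 3 (2.62, adjusted p = 0.172) or among females alone (2.74, adjusted p = 0.0543). The 2 early enzymes called became 0 in each of these 3 settings, and the 4 late enzymes became 2 with the covariate, 0 within prefix 3 and 3 among females. The other enzymes were not called: MVK at 0.54, PMVK at 0.24, MVD at 1.02, FDPS at 0.75, CYP51A1 at 0.94, LBR at 0.21, NSDHL at 1.11, HSD17B7 at 1.22 and EBP at 0.18.

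**Figure D2:**
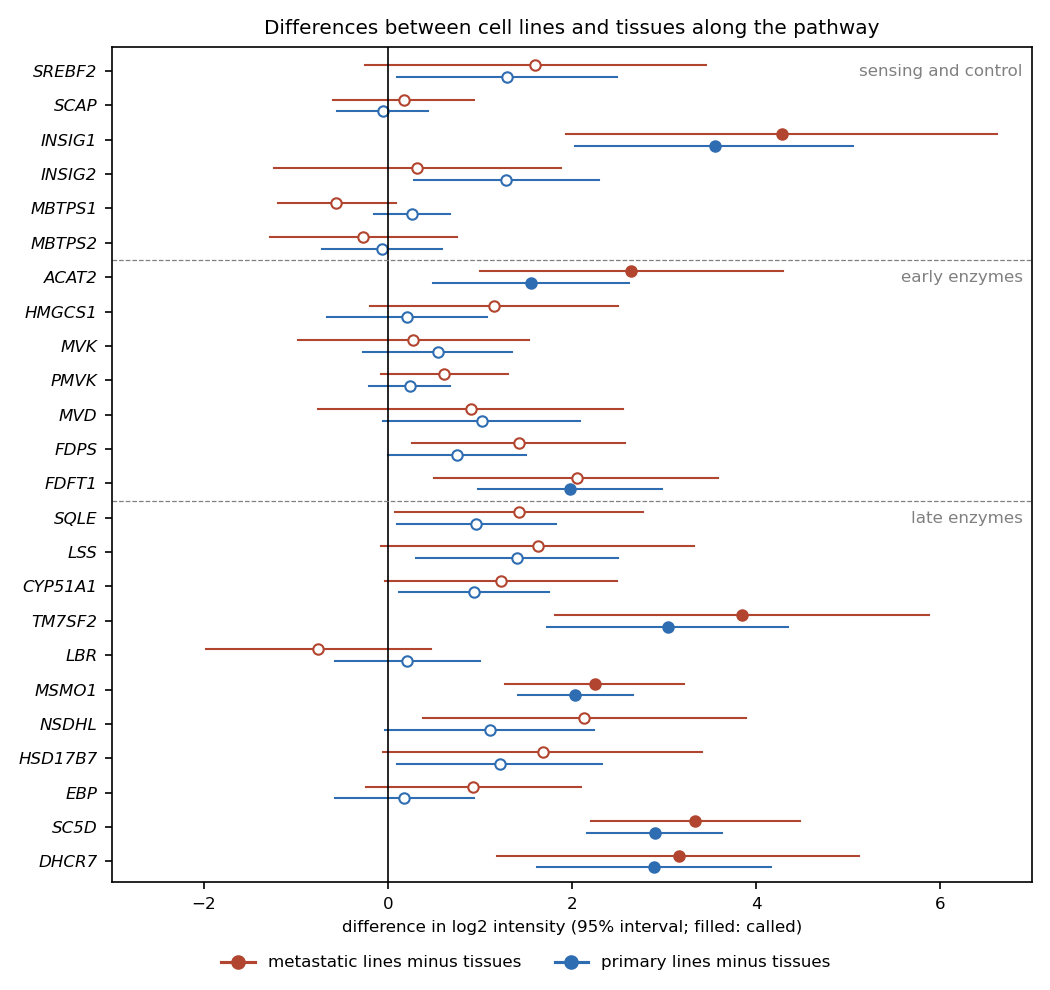
Difference in log2 intensity of metastatic lines minus tissues and of primary lines minus tissues, with 95% intervals, for the measured genes of sterol sensing, the early enzymes and the late enzymes; filled points were called. Both comparisons share the 6 tissues. INSIG1, TM7SF2, SC5D and DHCR7 lie near or above 2.89 in primary lines, while HMGCS1 (0.21) and EBP (0.18) sit near 0.

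Genes around the pathway are counted against the same 5.57% called higher and 14.6% called in either direction. Of the 6 measured genes of sterol sensing, INSIG1 alone was called. SREBF2, which encodes SREBP2, was 6.62 ± 1.43 in primary lines and 5.32 ± 1.04 in tissues, a difference of 1.29 (adjusted p = 0.111). INSIG2, the other INSIG, was 1.28 higher (adjusted p = 0.0582), and SCAP, MBTPS1 and MBTPS2, which escort and cut SREBP, stood at -0.05, 0.26 and -0.06.

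Of 6 measured genes of uptake and trafficking, NPC1, which exports cholesterol from lysosomes, was called at 1.17 (adjusted p = 0.00466), but its difference within prefix 3 was -0.27 (adjusted p = 0.766). MYLIP, a ubiquitin ligase that limits lipoprotein uptake, was -1.29 (adjusted p = 0.0507). Of 3 measured genes of efflux and storage, NR1H3, which encodes the oxysterol receptor LXR alpha, was lower in primary lines, at 4.24 ± 1.07 against 7.91 ± 0.94 in tissues, a difference of -3.67 (adjusted p = 1.69e-07) that was called in all 18 alternatives. NR1H3 was over log2 5 in 4 of 24 primary lines, so the size of its difference is uncertain. NR1H3 is also known from macrophages, whose markers, taken as a sum, reached the tissue range in no line other than primary line 4. Their part in this difference was not tested.

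Of 8 measured genes of fatty acid synthesis, 3 were called higher in primary lines, beside 5.57% of all genes: FADS1 at 1.90 (adjusted p = 4.61e-05) and FADS2 at 1.79 (adjusted p = 0.0331), both fatty acid desaturases, and SCD, the stearoyl-CoA desaturase, at 1.30 (adjusted p = 0.00119). None of the 3 was called with the prefix as a covariate. FADS2, over log2 5 in 9 of 24 primary lines and 0 of 6 tissues, also lost its call without tissue 1, 2, 3, 4 or 5, and both FADS2 (adjusted p = 0.0819) and SCD (adjusted p = 0.142) lost it among females alone.

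By the probe set that stood for each gene, metastatic lines stood above tissues by more than primary lines did for each of the 7 genes. These comparisons share the same 6 tissues, and no gene of the 7 was called between metastatic and primary lines. Both other probe sets of HMGCS1 gave the opposite order, at 1.02 against 1.04 and 1.73 against 2.07. Against tissues, 3 of 7 were called higher in metastatic lines, INSIG1, SC5D and DHCR7, where 2.93% of all genes were, with 7.5% called in either direction. INSIG1 measured 9.17, 11.98 and 11.31 in metastatic lines 1, 2 and 3, all above the highest tissue at 8.20, and was 4.28 higher (SE 1.15, adjusted p = 0.0167). SC5D measured 9.80, 10.68 and 9.69, all above the highest tissue at 7.58, and was 3.34 higher (SE 0.56, adjusted p = 0.0001). DHCR7 measured 6.43, 7.41 and 7.86 and was 3.16 higher (SE 0.97, adjusted p = 0.0369). All 3 metastatic lines lay above every tissue for these 3 genes, as 7.33% of all genes did. Without metastatic line 2 or without metastatic line 3, 1 of the 7 genes was called, and SC5D was that gene in both. DHCR7 lost its call without tissue 1, 5 or 6 or without any 1 metastatic line (adjusted p of 0.0504 to 0.138), and INSIG1 lost it with its other probe set (3.05, adjusted p = 0.136). Among females alone the metastatic group is 1 line, and none was called, with differences of 5.31 for INSIG1, 3.79 for SC5D and 3.39 for DHCR7.

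The other 4 genes were not called. FDFT1 measured 8.27, 10.60 and 10.32 (difference 2.05, adjusted p = 0.0936), and SQLE measured 12.02, 12.25 and 12.20 (1.42, adjusted p = 0.193). HMGCS1 measured 12.18, 12.90 and 11.97 (1.15, adjusted p = 0.318), and LSS measured 2.24, 5.55 and 5.19 (1.63, adjusted p = 0.251). Metastatic line 1, whose 3′ to 5′ differences stood apart from the other metastatic lines, was the lowest of the 3 for INSIG1, FDFT1, SQLE, LSS and DHCR7. Without it, INSIG1 and SC5D were called higher than in tissues.

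Between metastatic and primary lines, limma called 0 of the 7 genes, where 0.0127% of all genes were called and 533 of 7849 had an unadjusted p under 0.05. All 7 differences were above 0, from 0.07 for FDFT1 to 0.94 for HMGCS1, with a median of 0.45 against 0.05 over all genes and adjusted p of 0.794 to 0.992. The 95% interval of HMGCS1 was -0.23 to 2.11, and that of INSIG1 was -1.30 to 2.76. With 3 metastatic lines these intervals are wide, and the signs of FDFT1, LSS and DHCR7 turned when a metastatic line was left out. Without metastatic line 1 the differences were 0.79 for FDFT1, 1.27 for LSS and 0.67 for DHCR7, and 0 of the 7 genes were called by limma. By the probe set that stood for each gene, group means ran from metastatic lines to primary lines to tissues for all 7 genes. Both other probe sets of HMGCS1 put metastatic lines below primary lines, by -0.02 and -0.34. Metastatic and primary lines were not separated by the test for any gene. Primary lines and tissues were separated for INSIG1, FDFT1, SC5D and DHCR7 only.

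Among primary lines, 3 further labels were examined, and no gene of the 7 was called for any of them. With survival in the 11 lines from SOC-treated dogs, slopes per doubling of the survival label, whose unit is not given, ran from -0.50 for INSIG1 to 0.00 for SC5D (adjusted p of 0.906 to 1.0); limma called 0 of 7849 genes (0.0%) and 384 had an unadjusted p under 0.05. In 13 male against 10 female lines, all 7 differences were above 0, from 0.26 for SQLE to 1.18 for LSS, whose unadjusted p of 0.018 gave an adjusted p of 1.0. Limma called 0 genes by sex (0.0%), and 319 had an unadjusted p under 0.05. In 10 lines from Rottweilers against 7 from Golden Retrievers, fitted with sex, differences ran from -0.24 for SC5D to 1.09 for INSIG1 (adjusted p of 0.697 to 0.956), where 0.0255% of all genes were called and 852 had an unadjusted p under 0.05.

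The 7 genes varied together from line to line. Over 24 primary lines all 21 pairs had a Pearson r above 0, from 0.228 for SC5D with DHCR7 to 0.857 for HMGCS1 with FDFT1, with a median of 0.611. By permutation with 100000 draws and adjustment over the 21 pairs, 19 pairs were called by Pearson's r and 19 by Spearman's rho. Over all pairs of the 7849 genes the median r was 0.011, 10.7% had an r of at least 0.427, the lowest called here, and 2.8% had one of at least 0.611. FDFT1 with SC5D, the pair at 0.427, placed SC5D at rank 880 of 7848 genes by r with FDFT1. INSIG1 with HMGCS1 had r = 0.848 and rho = 0.847 (adjusted permutation p = 5.25e-05 and 4.2e-05), and r = 0.826 without the 2 lines farthest from the median of INSIG1. HMGCS1 with FDFT1 had r = 0.857 and rho = 0.856 (the same adjusted p, the smallest that these draws gave), and HMGCS1 with LSS had r = 0.810 and rho = 0.828.

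Both pairs that were not called held SC5D. SQLE with SC5D had r = 0.307 (adjusted permutation p = 0.15) and SC5D with DHCR7 had r = 0.228 (adjusted permutation p = 0.282). Within the 19 lines of title prefix 2, the count called was again 19 of 21, with a median r of 0.702. Leaving out the 2 lines farthest from the median of the first gene of each pair, 15 pairs were called. All lines share the array platform and normalization, and these correlations describe lines, not single cells.

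**Figure D3:**
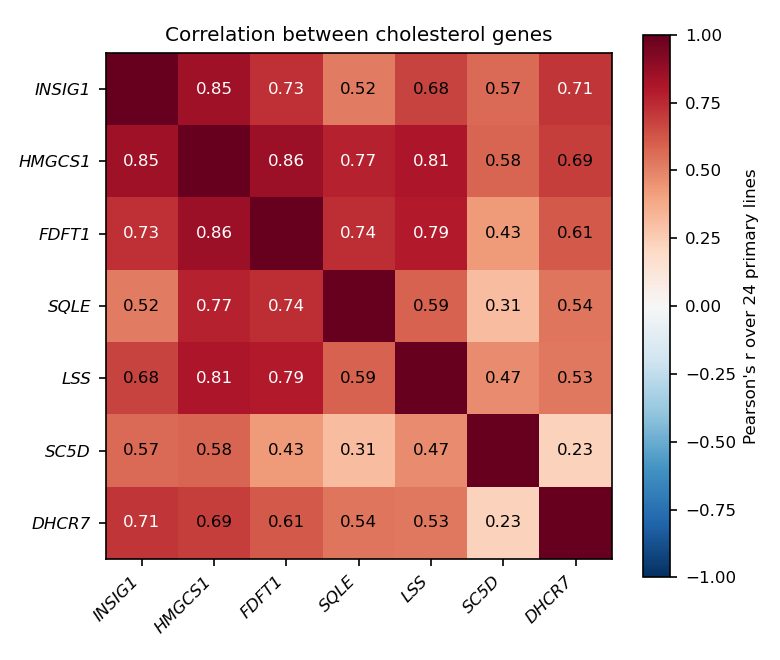
Pearson's r between the 7 measured genes over 24 primary lines. Every r is above 0, the highest is HMGCS1 with FDFT1 (0.857), and the lowest values lie in the row and column of SC5D, down to 0.228 with DHCR7.

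In the 6 tissues all 21 pairs also had r above 0, from 0.112 to 0.902 for SQLE with SC5D, with a median of 0.545, given as a description of 6 points. INSIG1 with HMGCS1 was the lowest of these. The tissues with the highest HMGCS1, tissues 2 and 3 at 12.01 and 12.02, had INSIG1 at 5.90 and 6.34. Both INSIG1 values lie below the lowest but 1 of the primary lines, 7.63.

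**Figure D4:**
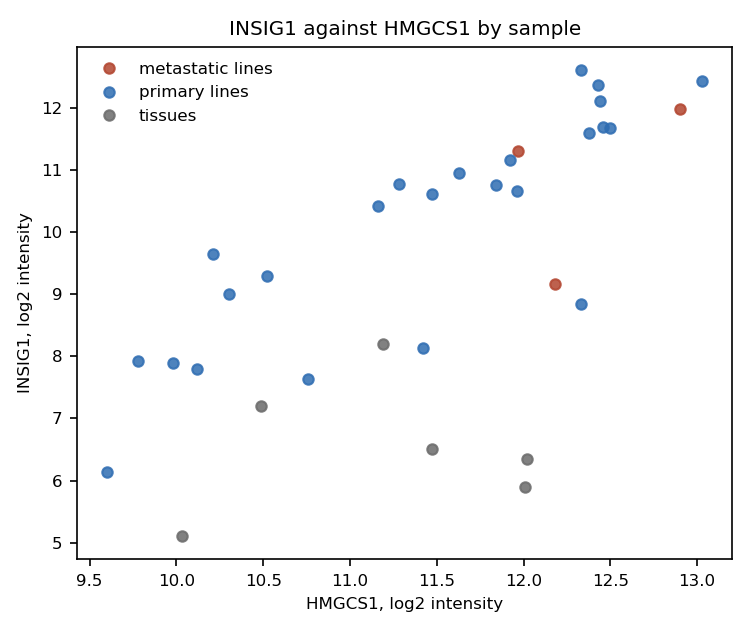
INSIG1 against HMGCS1 in log2 intensity, 1 point per metastatic line, primary line or tissue. Lines follow a rising band (r = 0.848 over 24 primary lines), and the 6 tissues lie lower for INSIG1 (5.11 to 8.20) at HMGCS1 levels of 10.03 to 12.02.

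For each gene, the 5 tested genes with the highest r over the 24 primary lines were listed, giving 35 places held by 22 distinct genes. Of the 35 places, 24 were held by genes of the wider list, of which 7 by the 7 genes themselves and 17 by its other genes, and 11 by genes outside it. HMGCS1 and DHCR7 had FDPS, farnesyl diphosphate synthase, as the closest gene (r = 0.902 and 0.82), FDFT1 and INSIG1 had HMGCS1 (0.857 and 0.848), SQLE had MVD, mevalonate diphosphate decarboxylase (0.819), and LSS had TSPAN17 (0.846). The list of SC5D differed: its 5 closest genes were PEBP1, DNAI4, RNF170, TRAPPC8 and LOC482977 (r of 0.75 to 0.712), and none belongs to the wider list.

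Summed over the 7 genes as a mean deviation from the primary line mean, lines spanned a wide range. All 7 genes lay above that mean in 6 primary lines and below it in 5. Primary line 1 was highest at 1.83, and primary lines 16 and 20 were lowest at -1.90 and -1.68. Metastatic lines 2 and 3 stood at 1.12 and 0.71 with all 7 genes above the mean, and metastatic line 1 at -0.49. The 6 tissues ran from -3.17 for tissue 1 to -1.29 for tissue 6, so the lowest primary lines reached the level of the higher tissues. Primary lines 16 and 20 were also among those with the highest adipocyte sums, though PPARG of that list was over log2 5 in 0 of 24 primary lines. The part of these sums was not tested.

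**Figure D5:**
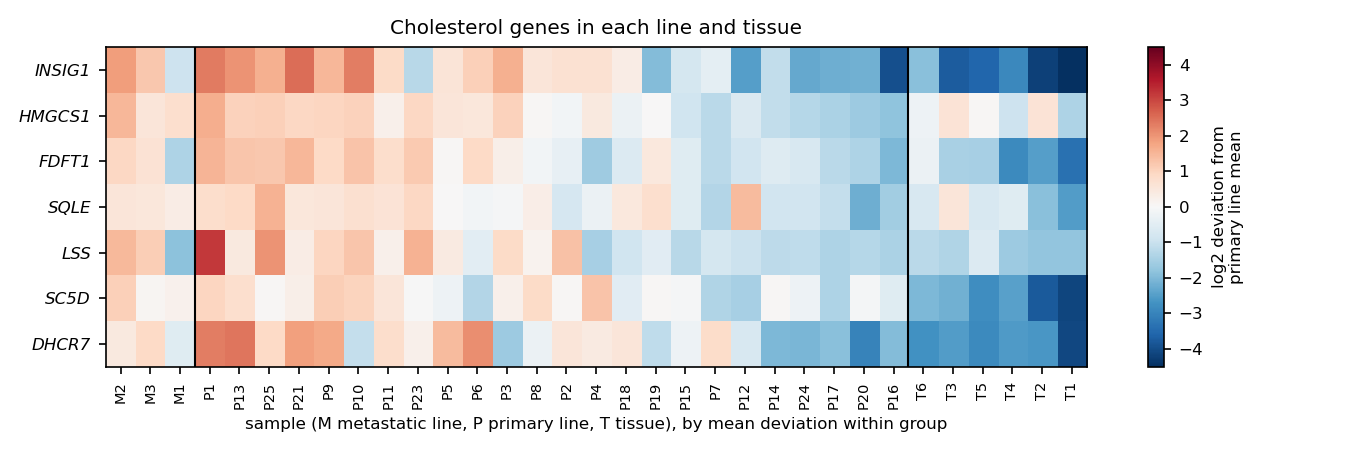
Deviation of the 7 measured genes from their primary line mean in each sample, in log2 units, with metastatic lines (M), primary lines (P) and tissues (T) from left to right and ordered by mean deviation within each group. Primary line 1 (1.83) and primary line 16 (-1.90) mark the ends of the primary lines, and tissue 1 (-3.17) is the lowest sample.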

How the data were processed

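RNA of 34 arrays was compared. The authors deposited 1 intensity per probe set and array, made by GCRMA according to the submitters' processing notes, which name no release or settings. The deposited intensities were linear, so log2 was taken, with a floor of 1 that altered no value. Arrays have no read depth, and their number limits the precision.

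Of 43035 probe sets, 175 controls were left out, 29254 had 1 gene symbol in the platform annotation, 439 had several and 13167 were not listed there. Probe sets over log2 5 on at least 3 arrays were kept (18591), and the one with the highest mean stood for its gene (7849 genes). IDI1 had no probe set named there and was not analysed here, so 21 pairs of genes were correlated. Some other genes of the wider list are not reported here.

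Both line arrays of dog 22 were averaged. Groups came from the source labels. Models were fitted with limma 3.58.1 in R 4.3.3 (lmFit and eBayes, 3 groups, Benjamini-Hochberg over all genes), and permutations were run with scipy 1.17.1 under Python 3.11.15. The fit was tested on simulated data. Dogs 22 and 23 gave a line and a tissue each; deviations from the group means correlated at 0.157 and -0.175, and a random block for dog had a correlation of -0.02666. The labels describe lines from separate dogs, so p-values measure the spread between dogs.

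The genes named were the members, the wider pathway list and the 5 closest genes of each member. Members and lists were chosen with earlier results of these data known. Alternatives changed the filter, the normalization, the probe set, dog 22, the block, array weights, sex, title prefix and the samples used.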

Additional observations from a re-analysis of the deposited data

Results flagged for a closer look

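Tissue 1 had a DHCR7 level of 2.87, and the other 5 tissues lay between 4.09 and 4.46. Its gap to the nearest tissue, as a share of the range of the group, passed Dixon's limit for 6 samples (0.625). The test was made for 7 groups, the tissues of each measured gene, and 1 passed, while chance passes about 1 in 20. All 6 tissues were under log2 5 for DHCR7, where intensities are near background.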

How the results depend on the processing

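Of the 7 genes, 4 were called higher in primary lines than in tissues in the replicate block fit, as without the block, and the block changed no other member call. The count was 1 with title prefix as a covariate and 0 within prefix 3, and leaving out 1 tissue gave 4 to 5. It was also 5 without primary line 4, a removal chosen after seeing the data. In metastatic lines against tissues 3 were called, and 0 among females alone; leaving out 1 tissue gave 2 to 3, leaving out 1 metastatic line gave 1 to 2. The late minus early gap of 0.94 was 1.82 with FDFT1 counted as late, 0.52 within prefix 3 and 0.16 with the most variable probe set of each gene. That probe set choice was planned for the group differences and was applied to the gap after seeing the data. The signs turned for HMGCS1 in primary lines against tissues without tissue 1 (leaving out 1 tissue gave -0.03 to 0.37), and in metastatic against primary lines for HMGCS1 with its most variable probe set, by interquartile range (-0.34). Leaving out 1 metastatic line gave -0.37 to 0.79 for FDFT1, -0.39 to 1.27 for LSS and -0.04 to 0.67 for DHCR7. The cause was not tested. INSIG1 in metastatic lines against tissues had an adjusted p of 0.136 with that other probe set choice. Counts over all genes in primary lines against tissues, 1148 as reported, were 707 among females, 493 with the prefix covariate and 251 within prefix 3. In metastatic lines against tissues, 589 as reported, they were 56 among females and 339 without metastatic line 1. DHCR7 and LSS near background limit their fold sizes.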
